A study of Arabidopsis thaliana with 16 samples.

Results

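Transcript levels of 8 repressors of flowering were described in *Arabidopsis thaliana* seedlings of 8 genotypes. The members were chosen by locus and comprised 6 genes of the AP2-like class, *AP2* (AT4G36920), *TOE1* (AT2G28550), *TOE2* (AT5G60120), *TOE3* (AT5G67180), *SMZ* (AT3G54990) and *SNZ* (AT2G39250), and the 2 TEMPRANILLO genes *TEM1* (AT1G25560) and *TEM2* (AT1G68840). They were 8 of the 33048 loci in the deposited table, and all 8 passed the filter on low values, which left 19895 genes for testing. mRNA-seq was made from whole 12-day-old seedlings grown at 23 °C with 16 h of light and 8 h of dark on medium with sucrose, with 2 libraries per genotype and 16 in all.

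The wild type was Col-0, and *paipp2-1* was made in that background. For the other alleles the study refers to earlier work without naming the background. *aipp3-1*, *cpl2-2* and the double mutant *aipp2-1/paipp2-1* each carry a mutation in a part of the BAH-PHD-CPL2 (BPC) complex, in which the BAH protein AIPP3 reads the repressive mark H3K27me3, the PHD proteins AIPP2 and PAIPP2 read histone H3 and CPL2 is a phosphatase of RNA polymerase II. The single mutants *aipp2-1* and *paipp2-1* were also sequenced. *clf-81* affects CLF, a Polycomb methyltransferase that writes H3K27me3, and *lhp1-3* affects LHP1, a Polycomb protein that reads it. The *AIPP3*, *CPL2* and *AIPP2* alleles are T-DNA insertions, that of *PAIPP2* was made with CRISPR/Cas9, and each gene was represented by 1 allele. The labels do not say that the 2 libraries of a genotype came from separate cultures, so p-values measure only the spread between these samples, which may be technical.

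Flowering in *Arabidopsis* starts when *FT*, which encodes the mobile florigen made in leaves, and *SOC1*, a MADS-box integrator, are switched on, and the members keep these genes off in young plants. The AP2-like proteins carry AP2 DNA-binding domains and are themselves held down by the microRNA miR172, whose level rises with age. TEM1 and TEM2 combine an AP2 with a B3 domain, belong to the RAV family and repress *FT* and the gibberellin synthesis genes *GA3OX1* and *GA3OX2*.

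The miR172 sequences and their sites are shown because they set the AP2-like members apart from the TEM genes at the sequence level. The mature 3′ miRNAs, read 5′ to 3′ from the RefSeq annotation of TAIR10.1 with the seed (bases 2 to 8) in capitals, shared 1 seed and differed at an end.
miR172a and miR172b: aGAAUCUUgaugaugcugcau
miR172c and miR172d: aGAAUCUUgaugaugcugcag
miR172e: gGAAUCUUgaugaugcugcau
The best ungapped match to the complement of miR172a was searched in every annotated mRNA, on the mRNA strand, and the capitals below mark mismatches to that complement.
*AP2*, chr4:17403019-17403039, plus strand: CtgcagcatcatcaGgattct
*TOE1*, chr2:12226233-12226253, minus strand: CAgcagcatcatcaGgattct
*TOE2*, chr5:24210889-24210909, plus strand: atgcagcatcatcaGgattct
*TOE3*, chr5:26802175-26802195, minus strand: TGgcagcatcatcaGgattct
*SMZ*, chr3:20373774-20373794, minus strand: TtgcagcatcatcaGgattcC
*SNZ*, chr2:16389066-16389086, minus strand: TtgTagcatcatcaGgattcC
*TOE2* had 1 mismatch over the 21 bases, *AP2* 2, *TOE1*, *TOE3* and *SMZ* 3 each, and *SNZ*, the least complementary, 4. At most 3 mismatches occurred in 6 of 31346 genes with an annotated mRNA, of which 5 were members, and at most 4 in 39 genes (0.124%). The sites lay in the coding sequence of the last or next-to-last exon, although in *TOE1*, *TOE2* and *SNZ* some annotated transcripts have the site outside their coding sequence, and the site was in 1 of 4 annotated transcripts of *TOE3* and 1 of 2 of *SMZ*. The best matches in *TEM1* and *TEM2* had 8 mismatches, which is also the median over all genes. *TEM1* (chr1:8981556-8983314, minus strand) and *TEM2* (chr1:25880155-25882222, plus strand) were the members without such a site. A match is a description of the sequence, and mature miR172 was not measured here.

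FPKM is the number of sequenced fragments scaled by transcript length and by the fragments of the library. The steps between low FPKM values gave a depth between 19180000 and 27120000 fragments per library, with a median of 22790000. Between the 2 libraries of 1 genotype, Pearson's r over genes was at least 0.987 in 7 genotypes and 0.942 in *aipp2-1/paipp2-1*. In that double mutant the higher library exceeded the lower by a median of 1.61 times over the 8 members and by up to 2.13 times, so its values are given library by library. *AIPP3* and *CPL2* were lower in their own mutants, with log2 fold changes of -2.01 and -1.21, and *AIPP2* was lower in the double mutant with -1.64. Smaller differences of -0.40 for *AIPP2* in *aipp2-1* and -0.57 for *PAIPP2* in *paipp2-1* did not pass the test. In bulk seedlings, fewer cells that express a gene and less RNA per cell cannot be told apart.

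A single limma fit of log2(FPKM + 0.5) held every library, and a member is said to have changed where the Benjamini-Hochberg adjusted p over all genes was under 0.05. The study's criterion of an at least 2-fold change was added as a stricter rule. The log2 scale with this pseudocount understates changes of genes with low FPKM. Where mutant libraries are said to lie above or below those of Col-0, the share of all genes that do so was not computed. A test across all genotypes found differences for *TOE1* (adjusted p = 4.7e-06), *TEM2* (5.2e-05), *SNZ* (1.5e-04) and *TEM1* (0.0021), and not for *TOE2* (0.053), *SMZ* (0.095), *AP2* (0.31) and *TOE3* (0.67). These 4 of 8 stood against 50.4% of all genes tested. The 4 that varied are therefore described singly, by class.

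**Figure D1:**
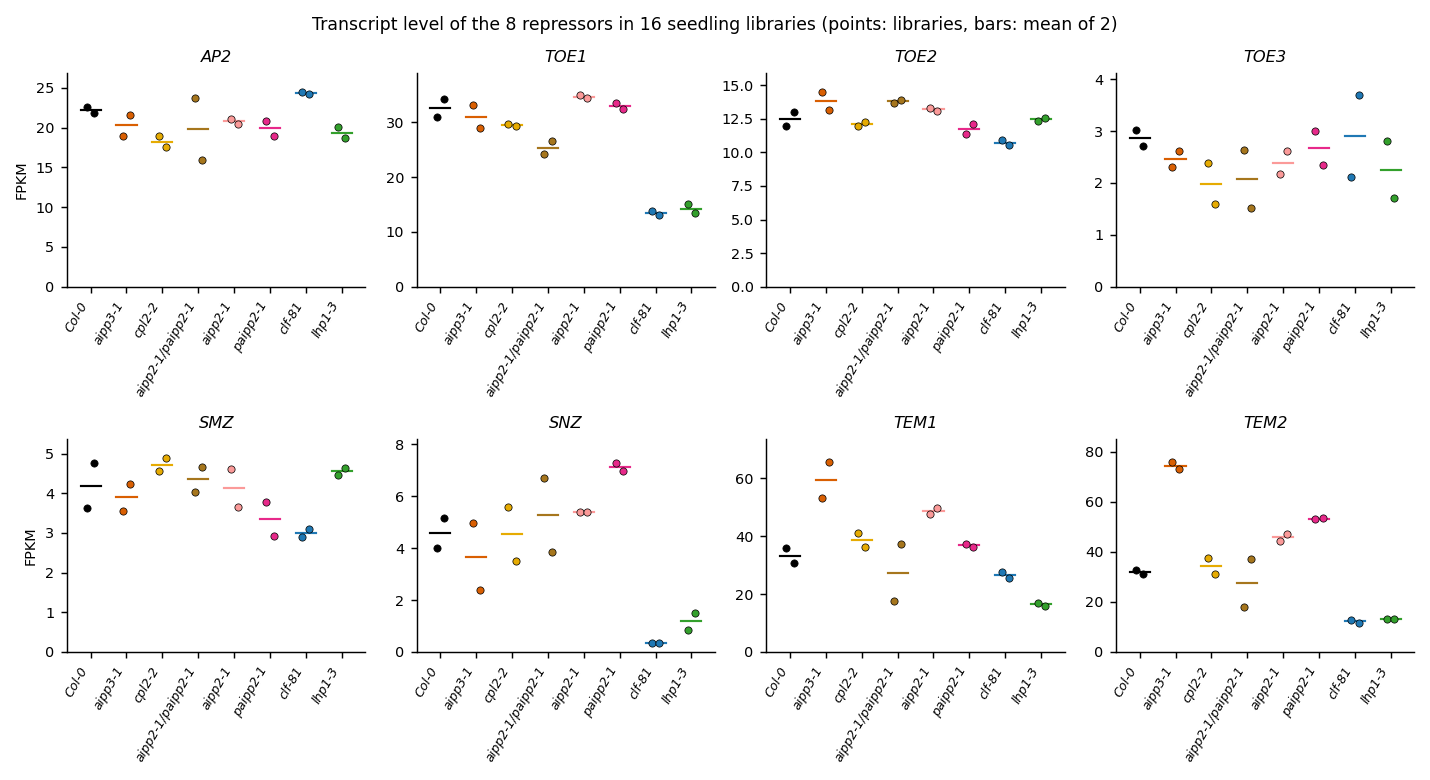
FPKM of each of the 8 repressors in 16 seedling libraries, 1 panel per gene. Points are libraries, bars are the mean of the 2 libraries of a genotype, and each axis starts at 0 with its own scale. *TOE1*, *SNZ* and *TEM2* are lowest in the 4 libraries of *clf-81* and *lhp1-3*, and *TEM2* is highest in *aipp3-1*.

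*TOE1* encodes an AP2-like repressor of *FT* that interferes with the photoperiod activator CONSTANS. It measured 30.92 and 34.33 FPKM in the Col-0 libraries, against 13.78 and 13.0 FPKM in *clf-81* and 15.04 and 13.41 FPKM in *lhp1-3*. The 4 Polycomb mutant libraries lay below all 12 others, whose lowest value was 24.2 FPKM. The share of all genes that separate in this way was not computed, here or for *SNZ* and *TEM2* below. *TOE1* fell by 1.25 on the log2 scale in *clf-81* (SE 0.099, limma adjusted p = 5.3e-06) and by 1.17 in *lhp1-3* (SE 0.099, limma adjusted p = 2.2e-05). In the BPC mutants *TOE1* stayed nearer to the wild type. The *aipp3-1* libraries had 33.23 and 28.9 FPKM, those of *cpl2-2* 29.66 and 29.37 FPKM, and those of *aipp2-1/paipp2-1* 24.2 and 26.54 FPKM. Among these, the libraries of *cpl2-2* and of the double mutant were below both Col-0 libraries, and those of *aipp3-1* overlapped them. The double mutant passed the test with a log2 fold change of -0.36 (SE 0.099, limma adjusted p = 0.024), a call that was lost with only its own and the Col-0 libraries in the fit (adjusted p = 0.43), without the second Col-0 library (0.14) or without its own first library (0.065). The values were 34.99 and 34.44 FPKM in *aipp2-1* and 33.5 and 32.43 FPKM in *paipp2-1*. By mean, the order from high to low was *aipp2-1*, *paipp2-1*, Col-0, *aipp3-1*, *cpl2-2*, *aipp2-1/paipp2-1*, *lhp1-3* and *clf-81*. The only neighbours in this order that differed were *aipp2-1/paipp2-1* and *lhp1-3* (log2 difference 0.81, limma adjusted p = 1.9e-04).

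*SNZ* is the sister gene of *SMZ*, likewise represses flowering and has the least complementary of the miR172 sites shown above. It was expressed at 4.02 and 5.18 FPKM in Col-0 and had the widest relative span of the members, 21.4 times from 0.34 to 7.27 FPKM. In *clf-81* both libraries were low, with 0.35 and 0.34 FPKM. These values correspond to about 13 fragments each, and 3 fragments would be worth 0.080 FPKM there. The *lhp1-3* libraries had 0.86 and 1.5 FPKM, from about 36 and 55 fragments. All 4 Polycomb libraries were below the other 12, of which the lowest had 2.37 FPKM. The log2 fold change was -2.58 in *clf-81* (SE 0.323, limma adjusted p = 1.4e-04) and -1.62 in *lhp1-3* (SE 0.323, limma adjusted p = 0.0054). With a pseudocount of 0.1 these were -3.39 and -1.91. Without the first *lhp1-3* library the *lhp1-3* value was -1.34 and its adjusted p was 0.064. *SNZ* varied between the replicates of the BPC mutants, which had 4.96 and 2.37 FPKM (*aipp3-1*), 5.59 and 3.52 FPKM (*cpl2-2*) and 6.70 and 3.84 FPKM (*aipp2-1/paipp2-1*). Each of these pairs overlapped the Col-0 range or spanned it. The highest libraries were those of *paipp2-1*, with 7.27 and 6.97 FPKM, but the log2 difference from Col-0 of 0.59 (95% interval -0.12 to 1.29) did not pass the test. The *aipp2-1* libraries had 5.41 and 5.38 FPKM. From high to low the order was *paipp2-1*, *aipp2-1*, *aipp2-1/paipp2-1*, Col-0, *cpl2-2*, *aipp3-1*, *lhp1-3* and *clf-81*, and only *aipp3-1* and *lhp1-3* differed as neighbours (log2 difference 1.26, limma adjusted p = 0.012). All 12 pairs of a Polycomb mutant with another genotype differed for *SNZ* and none of the other 16 pairs did. That is 12 of 28 pairs, against 16.9% of genes and pairs over the whole table. All 12 Polycomb pairs also differed for *TOE1* and *TEM2*, where 3 and 5 of the other 16 pairs differed too. The share of all genes over the Polycomb pairs alone was not computed.

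The other AP2-like members moved little. *AP2*, which specifies sepals and petals and also acts in seeds, was between 15.95 and 24.41 FPKM in the 16 libraries (median 20.7), and none of its 28 pairs of genotypes differed. Its highest libraries were those of *clf-81*, with 24.41 and 24.25 FPKM, and its lowest single library was 1 of the double mutant, which had 23.65 and 15.95 FPKM. In *cpl2-2* it had 18.97 and 17.50 FPKM, both below the 22.63 and 21.77 FPKM of Col-0. That log2 difference of -0.28 (95% interval -0.60 to 0.04) missed the test (adjusted p = 0.35) and passed it in the fit without the double mutant libraries (adjusted p = 0.033).

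*TOE2*, a close relative of *TOE1* with the best match to miR172, had the narrowest relative span of the members, between 10.53 and 14.52 FPKM. It had 11.94 and 12.99 FPKM in Col-0 and its lowest values in *clf-81*, with 10.93 and 10.53 FPKM. The *clf-81* pair lay below all others, but its log2 fold change of -0.21 (95% interval -0.40 to -0.01) had an adjusted p of 0.11. The remaining mutants differed from Col-0 by between -0.08 and 0.14 on the log2 scale. For *TOE2* 3 pairs of genotypes differed, *clf-81* being lower than *aipp3-1* (limma adjusted p = 0.0099), *aipp2-1/paipp2-1* (0.011) and *aipp2-1* (0.030).

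*SMZ*, which binds *FT* and other flowering genes, had 3.62 and 4.76 FPKM in the wild type but 2.90 and 3.11 FPKM in *clf-81*. Its log2 fold change there was -0.41 (95% interval -0.77 to -0.05, limma adjusted p = 0.089), and only 2 pairs of genotypes differed, *clf-81* against *cpl2-2* and *clf-81* against *aipp2-1/paipp2-1*. *TOE3*, which acts with AP2 on the floral gene *AG*, lay between 1.51 and 3.70 FPKM. The 2 libraries of *clf-81* had 2.11 and 3.70 FPKM, a spread wider than that between the means of any genotypes, and no pair of genotypes differed. *TOE3* and *SMZ* overlap a gene on the opposite strand by 119 and 544 bases, and since the library kit is not stated to keep strand, reads from such a pair cannot be told apart. In the orders of genotypes by level of *AP2*, *TOE2*, *TOE3* and *SMZ*, no neighbours differed.

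*TEM1* and *TEM2* varied most among the BPC mutants. *TEM2* had 32.77 and 31.06 FPKM in the wild type but 75.83 and 73.2 FPKM in *aipp3-1*, the highest value of any member in any library. Both *aipp3-1* libraries were above all others, and the log2 fold change was 1.21 (SE 0.233, limma adjusted p = 0.0091). It was between 1.17 and 1.25 when any of the 16 libraries was left out. Leaving out either Col-0 library or either *aipp3-1* library moved its adjusted p to between 0.054 and 0.059. The rise was not shared by *cpl2-2*, which had 37.77 and 31.02 FPKM, and the difference between *cpl2-2* and *aipp3-1* of -1.11 passed the test (limma adjusted p = 0.031). The single mutants were intermediate, with 44.48 and 47.14 FPKM in *aipp2-1* and 53.17 and 53.51 FPKM in *paipp2-1*. Both pairs were above Col-0. The log2 fold changes were 0.51 in *aipp2-1* (95% interval 0.00 to 1.02, adjusted p = 1.0) and 0.73 in *paipp2-1* (95% interval 0.22 to 1.24, adjusted p = 0.24), and the second passed the test once the double mutant libraries were left out of the fit (adjusted p = 0.0029).

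The double mutant did not combine these values. Its libraries had 18.04 and 37.17 FPKM of *TEM2*, so that 1 was below and 1 above the Col-0 pair, and its log2 fold change was -0.29 (SE 0.233, limma adjusted p = 0.37). Taken on its own, the first library gave -0.81 and the second 0.22, with the spread of the other genotypes assumed. Leaf markers split between these libraries in the same direction, with a summed level of 3472 FPKM in the first and 5714 FPKM in the second, 210 and 420 FPKM of *LHCB2.1* and 845 and 1464 FPKM of *PSBO1*, and their part in the *TEM* values was not tested. The interaction of the *AIPP2* and *PAIPP2* mutations, that is, how far the double mutant lies from both single effects added together, was -1.54 for *TEM2* (SE 0.330, limma adjusted p = 0.024). It was the only 1 of the 8 members to pass, against 4.79% of all genes. It lost its call when any 1 of the 6 libraries of Col-0 or the single mutants was left out (adjusted p between 0.059 and 0.091). It was -1.03 with the second double mutant library alone and -2.05 with the first alone. *TEM2* fell by 1.35 in *clf-81* (SE 0.233, limma adjusted p = 0.0013), where it had 12.77 and 11.66 FPKM, and by 1.25 in *lhp1-3* (SE 0.233, limma adjusted p = 0.0037), where it had 13.15 and 13.06 FPKM. The 4 Polycomb libraries were again below all 12 others. From high to low the order was *aipp3-1*, *paipp2-1*, *aipp2-1*, *cpl2-2*, Col-0, *aipp2-1/paipp2-1*, *lhp1-3* and *clf-81*, with *aipp2-1/paipp2-1* and *lhp1-3* the only neighbours that differed (log2 difference 0.96, limma adjusted p = 0.013).

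*TEM1* moved with *TEM2* in part. It had 35.89 and 30.74 FPKM in the wild type but 53.29 and 65.79 FPKM in *aipp3-1*, again the highest pair. The log2 fold change of 0.82 (95% interval 0.28 to 1.37) had an adjusted p of 0.062, and of 5.2e-04 in the fit without the double mutant libraries. *TEM1* had 47.52 and 49.78 FPKM in *aipp2-1*, 41.16 and 36.14 in *cpl2-2*, and 37.29 and 36.41 in *paipp2-1*. All 3 pairs lay above both Col-0 libraries without passing the test. In *aipp2-1*, 5 of the 8 members lay above both Col-0 libraries and 2 below, but none passed the test. The share of all genes whose *aipp2-1* libraries lie above or below both Col-0 libraries was not computed, so these counts have no background to be set against. In *aipp2-1/paipp2-1* *TEM1* had 17.55 and 37.30 FPKM, the same split between the libraries as for *TEM2*. In *lhp1-3*, *TEM1* had 17.02 and 15.85 FPKM and fell by 0.99 on the log2 scale (SE 0.249, limma adjusted p = 0.018). The call was lost when either *lhp1-3* library or the first Col-0 library was left out (adjusted p between 0.078 and 0.13). In *clf-81* it had 27.62 and 25.59 FPKM, below Col-0 but with a log2 fold change of -0.32 (95% interval -0.86 to 0.23) that did not pass. By mean log2 level the order ran from *aipp3-1* through *aipp2-1*, then *cpl2-2*, then *paipp2-1*, to Col-0, *clf-81*, *aipp2-1/paipp2-1* and *lhp1-3*, and no neighbours differed. The longest run of identical bases between the *TEM1* and *TEM2* transcripts was 32.

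**Figure D2:**
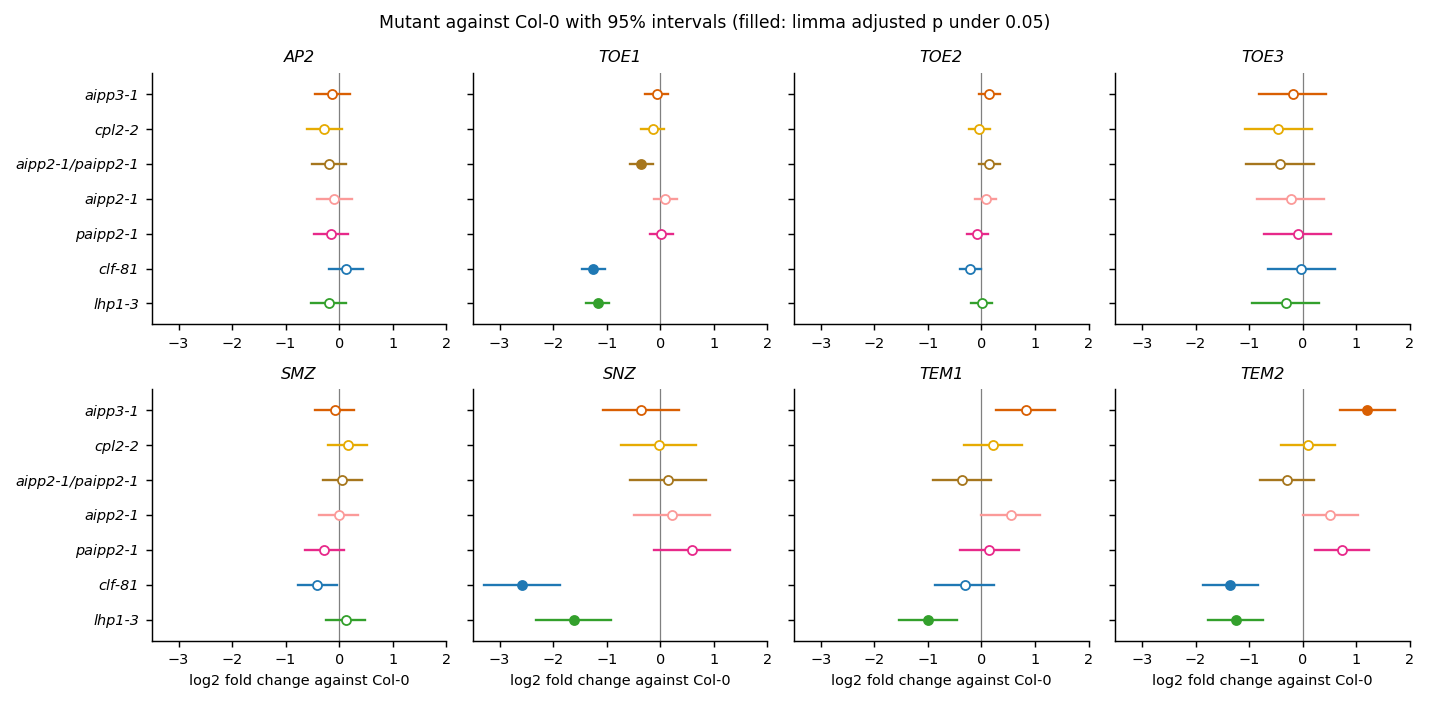
Log2 fold change of each member in 7 mutants against Col-0 with its 95% interval, on the log2(FPKM + 0.5) scale. Filled points have a limma adjusted p under 0.05. *TOE1*, *SNZ* and *TEM2* are filled on the left for both *clf-81* and *lhp1-3*, and the only filled point on the right is *TEM2* in *aipp3-1*.

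Counted by comparison, 1 of 8 members changed in *aipp3-1*, where 9.34% of all genes did, and none changed in *cpl2-2*, where 6.94% did and no member had an unadjusted p under 0.05. In *aipp2-1/paipp2-1* 1 member changed against 23.9% of all genes. None changed in *aipp2-1* (0.00503% of all genes) or *paipp2-1* (0.367%), with 1 member under an unadjusted p of 0.05 in each. In *clf-81* 3 members changed against 27.8% of all genes, and in *lhp1-3* 4 against 17.4%. All of these were lower, as were 14.7% and 8.37% of all genes. Under the rule with a 2-fold change, the 3 members *TOE1*, *SNZ* and *TEM2* were lower in each, where 2.55% of genes were in *clf-81* and 1.82% in *lhp1-3*. No member was higher in either Polycomb mutant. The median log2 fold change of the 8 members was -0.36 in *clf-81* and -0.66 in *lhp1-3*, where the median of all genes was -0.06 and -0.01. All these comparisons share the 2 Col-0 libraries.

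The contrast of the mean of the 3 BPC mutants with the mean of the 2 Polycomb mutants does not use Col-0. Of the 8 members, 5 changed, against 43.5% of all genes, and all 5 were higher in the BPC mutants, as were 27.4% of all genes. The differences were 2.02 for *SNZ* (SE 0.209, limma adjusted p = 1.9e-05), 1.64 for *TEM2* (SE 0.151, limma adjusted p = 8.1e-06), 1.02 for *TOE1* (SE 0.064, limma adjusted p = 5.0e-07) and 0.88 for *TEM1* (SE 0.161, limma adjusted p = 0.0011). *TOE2* passed with only 0.19 and an adjusted p of 0.022, which became 0.24 after quantile normalization, 0.15 after median-ratio scaling and 0.059 to 0.078 without the first *aipp3-1* library, the second *clf-81* library or either *lhp1-3* library. *AP2*, *TOE3* and *SMZ* differed by between -0.18 and 0.19 and did not pass, but *AP2* passed after median-ratio scaling (-0.25, limma adjusted p = 0.034) and without the first *aipp2-1/paipp2-1* library (-0.26, adjusted p = 0.0021), in both cases lower in the BPC mutants.

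*clf-81* and *lhp1-3* were also compared directly. No member passed, where 14.6% of genes did, but 5 had an unadjusted p under 0.05. *TEM1* was 0.68 higher in *clf-81* than in *lhp1-3* (95% interval 0.13 to 1.22, limma adjusted p = 0.093), and the same difference was -0.96 for *SNZ* (95% interval -1.67 to -0.26, adjusted p = 0.068) and -0.53 for *SMZ* (95% interval -0.89 to -0.16, adjusted p = 0.055). *AP2* and *TOE2* differed by 0.32 and -0.21. For *TOE1* and *TEM2*, the intervals of the difference were -0.30 to 0.13 and -0.61 to 0.41. Without the double mutant libraries in the fit, *AP2*, *SMZ*, *SNZ* and *TEM1* passed, with adjusted p-values of 0.0096, 0.024, 0.024 and 0.00083.

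**Figure D3:**
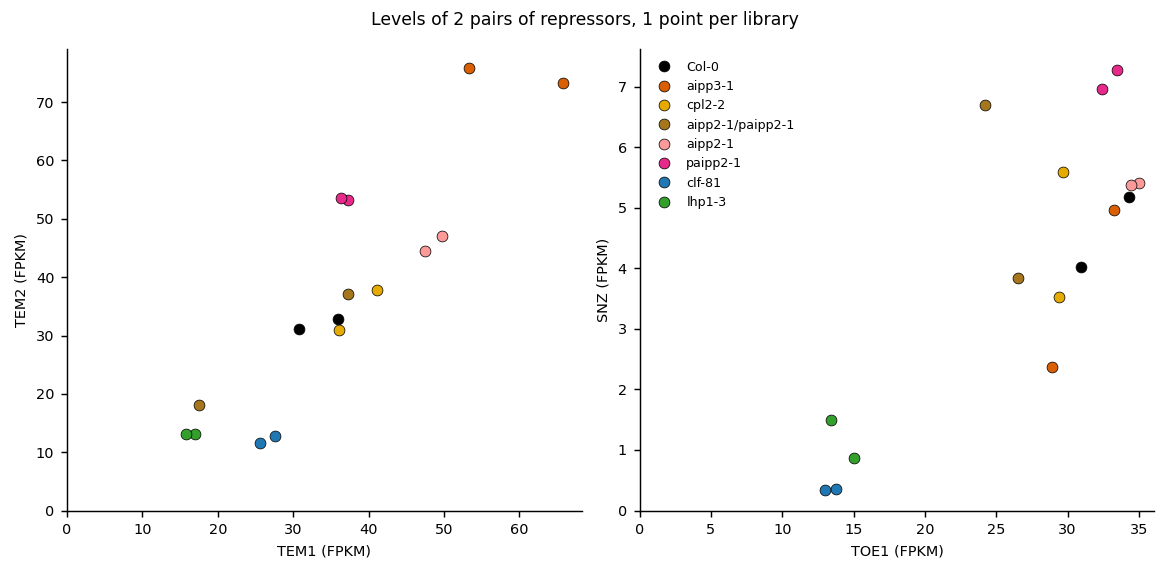
FPKM of *TEM2* against *TEM1* (left) and of *SNZ* against *TOE1* (right), 1 point per library, coloured by genotype. In the left panel *aipp3-1* lies at the top right and 1 library of *aipp2-1/paipp2-1* lies beside *lhp1-3*. In the right panel the 4 Polycomb libraries are separate from the other 12.

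Across the 16 libraries, log2 levels of *TEM1* and *TEM2* had a Pearson r of 0.88, and those of *TOE1* and *SNZ* 0.90. Between the classes, r was 0.88 for *TOE1* and *TEM2* and 0.73 for *SNZ* and *TEM2*. It was 0.73 for *TOE1* and *TEM1* and 0.43 for *SNZ* and *TEM1*. These are descriptions over libraries that fall into genotypes. The 4 Polycomb libraries lay apart from the rest for *TOE1*, *SNZ* and *TEM2*, and no correlation was computed without them. The genes with the pattern most like a member, among all genes tested, were *EIL1* (r = 0.969) and *AHL15* (0.962) for *TOE1*, *IBL1* (0.971) and *FAD3* (0.957) for *SNZ*, *PBL7* (0.965) and AT3G61180 (0.948) for *TEM1*, and AT4G29190 (0.982) and AT1G05840 (0.975) for *TEM2*. For *AP2* they were *PGRL1B* (0.892) and *PIP5K1* (0.871). The best matches were AT5G01950 (0.881) and AT5G51340 (0.855) for *TOE2*, AT2G39120 (0.831) and AT5G42660 (0.739) for *TOE3*, and AT5G07940 (0.779) and AT1G67510 (0.768) for *SMZ*. A correlation over 0.9 was found with 160 genes for *TOE1*, 99 for *TEM2*, 64 for *SNZ* and 40 for *TEM1*, and with none for the other 4 members.

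*RAV1*, the only 1 of 4 other RAV genes with enough signal to be tested, rose in *aipp3-1* (log2 fold change 0.67, limma adjusted p = 0.0028), *cpl2-2* (0.57, adjusted p = 0.0066) and *aipp2-1/paipp2-1* (0.50, adjusted p = 0.0052). It fell in *clf-81* (-0.37, adjusted p = 0.018) and *lhp1-3* (-0.46, adjusted p = 0.0093). Its 2 libraries in the double mutant had 27.15 and 27.71 FPKM, without the split seen for *TEM1* and *TEM2*. Of the 12 genes of the ANT branch of the AP2 family, which shape organ growth and seed oil, 11 were tested, and 3 were lower in *clf-81* and 1 in *lhp1-3*, with *WRI2* lower in both (-0.54 each). *ANT* alone was higher in *aipp2-1/paipp2-1* (1.25, adjusted p = 0.0090), with 36.56 and 15.53 FPKM in its libraries against 8.29 and 11.47 FPKM in the wild type.

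Upstream of the AP2-like genes, the precursors of miR172 were close to absent from these mRNA libraries. Of the 5 *MIR172* genes only *MIR172B* was tested, with at most 2.35 FPKM, and it passed in no mutant. Among 6 genes of miRNA processing, *DCL1*, which cuts the precursors, was lower in *clf-81* (-0.71, adjusted p = 3.9e-04) and *lhp1-3* (-0.33, adjusted p = 0.046). *HEN1*, which methylates mature miRNAs, was higher in *cpl2-2*, *aipp2-1/paipp2-1* and *lhp1-3* (0.57 to 0.81). Of the 11 *SPL* genes controlled by miR156, which act before miR172 in the age pathway, 8 were tested, and *SPL4* was higher in the double mutant (0.74), *clf-81* (1.29) and *lhp1-3* (0.71). *SPL13A* was lower in *lhp1-3* (-0.67, limma adjusted p = 0.044), although its reads may be shared with its near-identical copy *SPL13B* (-0.68, adjusted p = 0.059). AP2-like proteins repress through TOPLESS corepressors. Of 5 tested, 4 were lower in *clf-81*, among them *TPR2* (-0.70), *TPL* (-0.64) and *TPR3* (-0.50), and *TPR2* and *TPR3* were also lower in *lhp1-3*, while *TPR4* was higher in *cpl2-2*, *aipp2-1/paipp2-1* and *lhp1-3*. In *aipp2-1/paipp2-1* *TPL* was lower, with 50.7 and 69.97 FPKM (-0.38, limma adjusted p = 0.046).

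Downstream, 9 of 10 reported target genes of the repressors were tested, and some are also targets of other regulators. The part of the members in the levels of these target genes was not tested. *aipp3-1* and *cpl2-2* each had 4 of them higher and none lower, the double mutant and *clf-81* each had 4 higher and 1 lower, and *lhp1-3* had 6 higher and none lower. None passed in *aipp2-1* or *paipp2-1*. *FT* had 0.82 and 1.75 FPKM in the wild type. It reached 6.58 and 7.01 FPKM in *cpl2-2*, 9.25 and 6.16 FPKM in *clf-81* and, highest of all, 14.18 and 13.07 FPKM in *lhp1-3*. All of these mutant libraries were above Col-0, and the log2 fold changes were 2.08 (limma adjusted p = 0.0060), 2.23 (9.6e-04) and 3.03 (2.2e-04). In *aipp3-1*, *FT* had 3.18 and 1.73 FPKM. That pair overlapped Col-0, and the log2 difference of 0.73 had an adjusted p of 0.25. The double mutant had 1.66 FPKM, within the Col-0 range, and 4.04 FPKM, above it (log2 difference 0.86, adjusted p = 0.11).

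*SOC1* had 14.42 and 14.09 FPKM in Col-0 and rose in *aipp3-1* (29.5 and 25.38 FPKM, log2 fold change 0.92, limma adjusted p = 0.017), *cpl2-2* (29.36 and 27.47, 0.97, adjusted p = 0.014) and *aipp2-1/paipp2-1* (46.56 and 25.31, 1.24, adjusted p = 0.0014). The study, by RT-qPCR on seedlings of another age, reported no significant change of *SOC1* in the BPC mutants it tested. In *clf-81* and *lhp1-3*, the log2 differences of *SOC1* of 0.32 and 0.44 did not pass. *SEP3*, a floral MADS-box gene, rose in all of these mutants, with log2 fold changes of 0.93 to 1.68 in the BPC mutants and 5.32 and 5.11 in *clf-81* and *lhp1-3*. *AG*, which specifies stamens and carpels, had 0.14 and 0.08 FPKM in Col-0 but reached 27.01 and 26.72 FPKM in *clf-81* and, less high, 5.47 and 5.05 FPKM in *lhp1-3*. *FUL* rose in the 3 BPC mutants (0.89 to 1.43) and in *lhp1-3* (1.89), but not in *clf-81* (-0.23, adjusted p = 0.33). *AP1*, which marks the start of flowers, had at most 0.02 FPKM in the wild type, whereas the *lhp1-3* libraries had 1.35 and 1.22 FPKM.

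*GA3OX1*, a gibberellin gene that TEM proteins repress, had 9.99 and 11.16 FPKM in Col-0 and fell in *clf-81* (5.79 and 4.24 FPKM, log2 fold change -1.02, limma adjusted p = 2.4e-04) and in *aipp2-1/paipp2-1* (6.68 and 6.17 FPKM, -0.68, adjusted p = 0.0050). In *aipp3-1* it had 9.76 and 8.69 FPKM and did not pass. *GA3OX2* was between 0.75 and 2.21 FPKM in the 16 libraries and passed in no mutant.

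**Figure D4:**
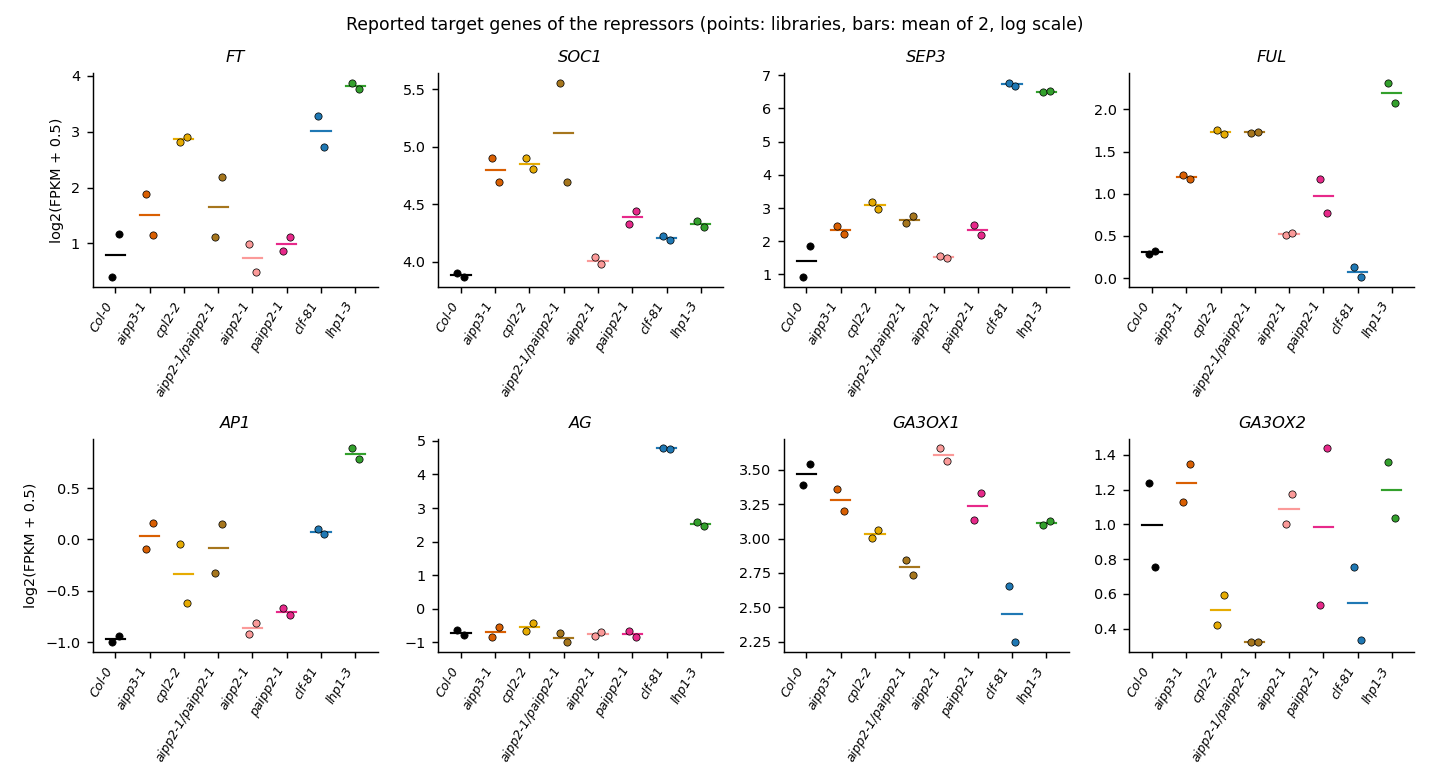
Level of 8 reported target genes of the repressors in 16 libraries as log2(FPKM + 0.5), with the bar at the mean of 2 libraries and a separate axis for each gene. *FT* is highest in *lhp1-3*, *clf-81* and *cpl2-2*, *SOC1* is highest in the BPC mutants, and *GA3OX1* is lowest in *clf-81*.

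Other regulators of flowering changed in the same libraries. *SVP*, a MADS-box repressor of *FT*, fell in *clf-81* (-1.30, limma adjusted p = 3.5e-04) and *lhp1-3* (-0.67, adjusted p = 0.027). *CO*, which activates *FT* in long days, fell in *cpl2-2*, *aipp2-1/paipp2-1*, *clf-81* and *lhp1-3* (-1.52 to -0.90). *FLC*, a repressor of *FT* and *SOC1*, had 0.91 and 1.10 FPKM in Col-0, was listed at 0 in both *cpl2-2* libraries, had 0.09 and 0 FPKM in *aipp2-1/paipp2-1* and rose to 3.96 and 2.89 FPKM in *clf-81* (1.37 on the log2 scale, adjusted p = 0.0017 by limma).

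The level of *TEM1*, *TEM2* and several clock genes varies over the day, and the time of harvest is not given in the sources used here. Of 11 clock genes, 8 were lower and 1 higher in *clf-81*, and 7 were lower and 3 higher in *lhp1-3*. Among them, *CCA1*, expressed in the morning, fell by 0.97 in *clf-81* (limma adjusted p = 0.0029) and by 1.28 in *lhp1-3* (adjusted p = 9.2e-04). *PRR9*, also a morning gene, rose in *aipp3-1* (1.00, adjusted p = 0.019) and *cpl2-2* (0.96, adjusted p = 0.026) and fell in *clf-81* (-1.16) and *lhp1-3* (-1.31). The part of these differences in the values of the members was not tested.

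Genes of touch and wounding also moved with some genotypes. Of 8 such genes, 7 were higher in *clf-81*, 6 in *aipp3-1*, 6 in the double mutant, 4 in *cpl2-2* and none in *lhp1-3*. Their summed level was 91.1 to 94.6 FPKM in Col-0, 199 to 396 FPKM in *aipp3-1* and 120 to 122 FPKM in *lhp1-3*. *WRKY40*, an early stress regulator, had 37.88 and 14.05 FPKM in the 2 *aipp3-1* libraries, while *TEM2* had 75.83 and 73.2 FPKM in the same libraries. Their part in the *TEM* values was not tested.

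Tissue markers were read beside the members. Of 5 leaf markers, *RBCS1A* and *CAB1* were at or near 0 in every library (named after their values were seen), 3 were tested, and *LHCB2.1* alone passed, in *lhp1-3* (-1.29). All 5 flower markers were higher in *clf-81* and *lhp1-3* and 2 in *aipp2-1/paipp2-1*, with summed levels of 1.15 to 1.51 FPKM in Col-0, 18.2 to 19.3 in *clf-81* and 34.7 to 37.6 in *lhp1-3*. All 5 seed markers were higher in *aipp2-1/paipp2-1*, with a sum of 94.4 and 209 FPKM in its 2 libraries against 0.26 to 0.56 in Col-0. In *aipp3-1*, *cpl2-2* and *paipp2-1* 1 seed marker each was higher. The sums there were 3.48 to 10.7, 9.2 to 35.4 and 10.4 to 52.0 FPKM. Of 5 root markers, 2 were lower in the double mutant, 1 was lower in *lhp1-3* and 1 was higher in *aipp3-1*. The part of these tissues in the values of the members was not tested.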

How the data were processed

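The authors trimmed paired-end poly(A) reads (SeqPrep, Sickle), and the deposited table gives FPKM to 2 decimals for 33048 loci in 16 libraries. The submitters' processing notes name TopHat, Bowtie, RSEM and edgeR without a role or version, and the genome build used for mRNA-seq is not given in the sources used here. FPKM is scaled by library total and transcript length, so reads shared between loci depend on that counting. Groups were taken from the sample labels and allele names from the study.

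Here log2(FPKM + 0.5) was fitted with limma 3.58.1 in R 4.3.3 (eBayes with a trend, 8 residual degrees of freedom), over 19895 genes that reached 1 FPKM in 2 or more libraries, and the code was tested on simulated data. Contrasts were each mutant against Col-0, the BPC against the Polycomb mutants, *clf-81* against *lhp1-3*, the interaction of *AIPP2* and *PAIPP2*, all 28 pairs of genotypes and an F test. p-values were adjusted over all genes.

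Depth was computed from the steps between low values and TAIR10.1 transcript lengths, and 95.5% to 96.9% of low values were within 0.15 of whole fragments. Fragment floors cover counting error only. Positions and sequences come from that reference with Python 3.11.15. In all, 6146 loci were listed at 0 in every library, among them the corepressor partner *HDA19*, *SPL3*, *SPL15* and the RAV gene *EDF3*.

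Alternatives were pseudocounts of 0.1 and 1, other filters and scalings, eBayes without a trend, fewer libraries in the fit, a replicate block and each library left out. The members and lists were chosen with earlier results of these data known. Named genes are the 8 members, the mutated genes, *FT*, *SOC1*, *GA3OX1* and *GA3OX2*, at most 4 others per list (those past the test in the most mutants) and the 2 genes most correlated with each member, and genes named for being listed at 0 were chosen after their values were seen.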

Additional observations from a re-analysis of the deposited data

Results flagged for a closer look

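In the fit of all 16 libraries, the difference in *TEM2* between *aipp2-1/paipp2-1* and *aipp2-1* departed from that between *paipp2-1* and Col-0. *AIPP2* itself passed as lower in the double mutant but not in *aipp2-1*. Leaf markers split between the 2 double mutant libraries in the same direction as *TEM2*. The part of either in the *TEM2* values was not tested. The interaction was -1.54 on the log2 scale (SE 0.330, limma adjusted p = 0.024). *TEM2* was at 31.9 ± 1.21 FPKM (SD, n = 2) in the wild type and at 53.3 ± 0.240 FPKM in *paipp2-1*, a difference that did not pass the test on its own (limma adjusted p = 0.24), and it was 45.8 ± 1.88 FPKM in *aipp2-1* and 27.6 ± 13.5 FPKM in *aipp2-1/paipp2-1*. The 2 libraries of the double mutant had 18.04 and 37.17 FPKM, both below the 2 libraries of either single mutant. The adjusted p was between 0.059 and 0.091 when any 1 of the 6 libraries of Col-0, *aipp2-1* or *paipp2-1* was left out.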

How the results depend on the processing

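The lower values of *TOE1*, *SNZ* and *TEM2* in *clf-81* and of *TOE1* and *TEM2* in *lhp1-3* passed the test under every alternative run. Over 1283 alternatives to 50 followed member values, 1202 kept direction and call, 23 lost the call, 42 gained it and 16 changed sign. The 2 unequal *aipp2-1/paipp2-1* libraries carried much of this. Without both of them, members changed numbered 2 in *aipp3-1*, 1 in *cpl2-2*, 1 in *paipp2-1*, 5 in *clf-81* and 4 between *clf-81* and *lhp1-3*. With only the mutant and Col-0 fitted they numbered 2 in *aipp3-1* and 0 in *aipp2-1/paipp2-1*. Between *clf-81* and *lhp1-3* there was 1 with a pseudocount of 0.1 and 1 with eBayes without a trend. Quantile normalization turned *SNZ* in *aipp2-1/paipp2-1* to -0.000383. The cause was not tested in these cases. With 1 library left out at a time, the lone sample of a genotype being assumed to vary like the others, members changed ranged from 0 to 2 in *aipp3-1*, 0 to 1 in *cpl2-2*, 0 to 3 in *aipp2-1/paipp2-1*, 0 to 1 in *paipp2-1*, 3 to 5 in *clf-81*, 2 to 4 in *lhp1-3*, 0 to 4 between *clf-81* and *lhp1-3* and 0 to 4 for the interaction, and differing pairs of genotypes from 51 to 89. Log2 values that changed sign on leaving 1 out ranged from -0.17 to 0.028 (*TOE1*) and -0.82 to 0.11 (*SNZ*) in *aipp3-1*, from -0.33 to 0.27 (*SNZ*) and -0.040 to 0.24 (*TEM2*) in *cpl2-2*, and from -0.058 to 0.091 (*TOE1*) in *paipp2-1*. In *aipp2-1/paipp2-1* they ranged from -0.46 to 0.090 (*AP2*), -0.22 to 0.51 (*SNZ*), -0.90 to 0.16 (*TEM1*) and -0.81 to 0.22 (*TEM2*), and for the interaction from -0.22 to 0.34 (*AP2*). The median of all genes moved from 0.07 to -0.04 in *aipp3-1* and from 0.05 to -0.06 in *aipp2-1/paipp2-1* under quantile normalization, and shifts are relative to that. Replicate numbers did not pair the libraries (correlation of deviations from -0.22 to 0.06). With a replicate block the counts were 3 in *clf-81*, 4 in *lhp1-3*, 1 in *aipp3-1*, 1 in the double mutant, 0 in each other mutant, 5 for BPC against Polycomb, 0 between *clf-81* and *lhp1-3* and 1 for the interaction. Crossing the numbers, an alternative chosen after seeing the data, gave 1, 0, 0 and 4 in *aipp3-1*, *cpl2-2*, *paipp2-1* and *lhp1-3*. The fit without *aipp2-1/paipp2-1* could not be run for contrasts that contain it. With 2 libraries per genotype, the SE of a member's difference from Col-0 was between 0.089 (*TOE2*) and 0.323 (*SNZ*) on the log2 scale.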
